A study of Mus musculus with 35 samples.

Results

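Homeostatic microglia identity transcripts are those by which resting microglia, the resident macrophages of the brain, are told apart from other brain cells and from macrophages that enter from blood. The 7 transcripts described here were chosen by name: Tmem119, Cx3cr1, Fcrls, Selplg, Olfml3, Sparc and Aif1, all found among the 21236 genes of the count table. In 6 male and 6 female mice, cells were sorted from midbrain, striatum and prefrontal cortex (PFC), and RNA-seq of 35 samples asked how transcript levels vary with brain region and sex. All mice, from a study in adult C57Bl/6J mice, were heterozygous for Tmem119-2A-CreERT2, a tamoxifen-inducible Cre recombinase made from the Tmem119 locus, and for Ai14(RCL-tdTomato)-D, a red fluorescent reporter that Cre switches on for good. They were 17 to 18 weeks old, received 75 mg/kg tamoxifen on 5 days and were killed 10 to 21 days later, and tdTomato-positive cells were sequenced. No group lacked the knock-in or tamoxifen. Since Tmem119 drives the label, its level is not independent of the sort. Each region and sex had 6 samples, except 5 in the male PFC. The count column taken as the striatum of mouse 3, as its sample label says, carries a PFC name, and the striatal differences of Fcrls and Selplg are given with and without it.

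Most of these genes code for proteins on the cell surface or outside the cell. Tmem119 and Cx3cr1 code for a membrane protein of microglia and for the receptor of the neuronal chemokine fractalkine. Fcrls codes for a scavenger receptor of the Fc receptor-like family, Selplg for the selectin ligand PSGL-1, Olfml3 and Sparc for secreted matrix proteins, and Aif1 for IBA1, the calcium-binding protein used to stain microglia in tissue. In the bulk of the brain Sparc is also made by endothelial cells and astrocytes, and Cx3cr1 and Aif1 by other macrophages.

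The members were abundant in each sample and markers of other cells were far lower. Total counts lay between 37680501 and 54131421 per sample, and the 7 transcripts took 2.21% to 2.96% of them. In counts per library of 1000000 (CPM, scaled with TMM factors), the 7 members summed to 22601 to 29302 per sample. Summed CPM of 10 astrocyte markers were 211 to 266 in the midbrain, 261 to 444 in the striatum and 261 to 503 in the PFC. The 10 oligodendrocyte markers summed to 305 to 514, 302 to 869 and 231 to 532 CPM, and the 9 endothelial markers to 104 to 184, 110 to 213 and 94.7 to 163 CPM, in the same order. The 10 neuronal markers in the table, of 12 listed, summed to 2.62 to 6.83 CPM in the midbrain, 6.80 to 15.4 in the striatum and 10.3 to 27.4 in the PFC. The 8 pericyte and fibroblast markers in the table, of 10 listed, reached at most 30.1 CPM in a sample, the 6 monocyte and neutrophil markers, of 10 listed, 44.5 CPM, and the 7 lymphocyte markers, of 10 listed, 14.3 CPM. The 8 markers of border macrophages, of 9 listed, reached 125 CPM in the midbrain of mouse 6 and 20.9 CPM in the next highest sample, the midbrain of mouse 3. In sorted bulk RNA, fewer cells of a type and less RNA per cell cannot be told apart.

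Fcrls was the member with the clearest regional difference, rising from midbrain to striatum to PFC. It lies on chromosome 3 (GRCm38, 87250758 to 87263738, minus strand). In the midbrain its lowest, median and highest levels were 2387, 2852 and 3339 CPM (n = 12). In the striatum they were 3111, 3660 and 4502 CPM (n = 12), and in the PFC 3858, 4558 and 4935 CPM (n = 11). The lowest PFC sample thus stood above the highest midbrain sample, and the striatum overlapped both. The share of all genes whose midbrain and PFC ranges separate was not counted, so this gap is not shown to be particular to Fcrls. The means were 2864 ± 277 CPM in the midbrain, 3708 ± 451 in the striatum and 4454 ± 350 in the PFC (SD).

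The effect of region on Fcrls had an adjusted p of 2.62e-09 (edgeR quasi-likelihood test, Benjamini-Hochberg over all genes). PFC was 1.55-fold over midbrain (95% interval 1.43 to 1.68, log2 fold change 0.63, SE 0.058, edgeR adjusted p = 5.42e-10) and higher in 11 of 11 mice with both samples. Striatum was 1.29-fold over midbrain (log2 fold change 0.37, SE 0.056, edgeR adjusted p = 3.09e-05) and higher in 12 of 12 mice. Striatum was below PFC in all 11 mice, at 0.835 of its level (log2 fold change -0.26, SE 0.058, edgeR adjusted p = 0.0241). A region pair was called, by the study's cut-offs, where the region effect had an adjusted p under 0.05 and the pair differed by more than 1.2-fold at an unadjusted p below 0.05. Fcrls passed in both pairs with the midbrain, and its difference between striatum and PFC passed the p-values but fell just short of that fold. With mouse as a replicate block, that is comparing within mice, the log2 fold change was -0.29 (edgeR adjusted p = 8.03e-05) and passed the fold as well. Without the striatum sample of mouse 3, whose 4252 CPM lay inside the ranges of both striatum and PFC, it was -0.28 (edgeR adjusted p = 0.009625) and passed too, and striatum over midbrain was 0.35 (edgeR adjusted p = 6.03e-05).

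**Figure D1:**
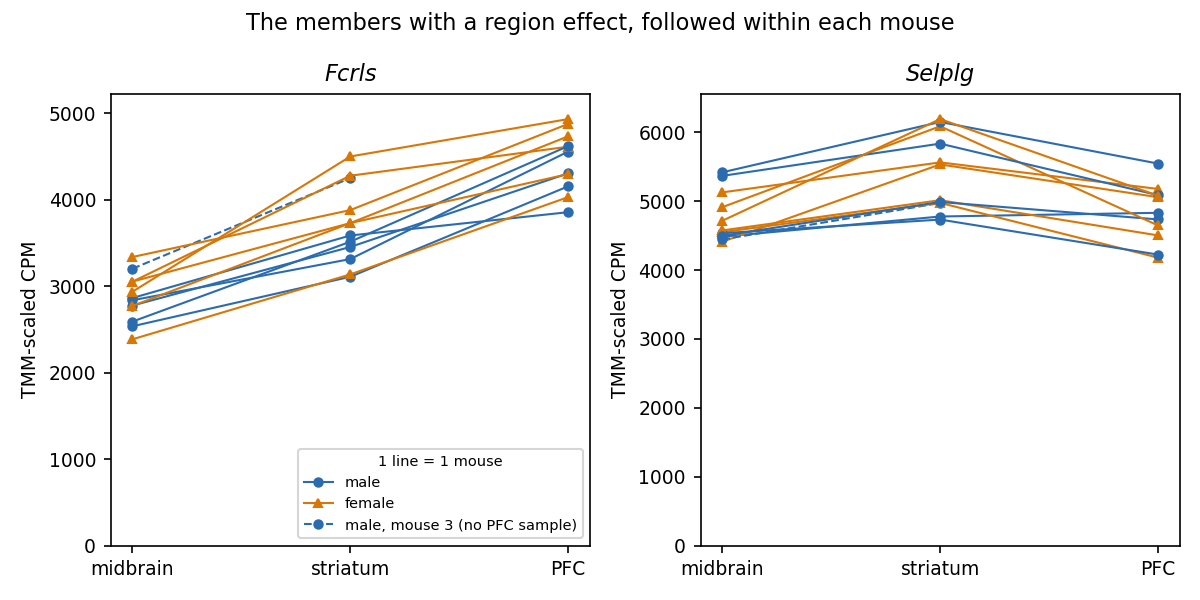
TMM-scaled CPM of Fcrls (left) and Selplg (right) by region, with 1 line for each of the 12 mice (circles for males, triangles for females, dashed for mouse 3, which has no PFC sample). Every Fcrls line rises from midbrain to striatum and, where there is a PFC sample, on to the PFC, and every Selplg line rises from midbrain to striatum.

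The order of Fcrls means was the same in both sexes, and its region effect passed in mice 1 to 6 alone (edgeR adjusted p = 0.000633) and in mice 7 to 12 alone (2.65e-05). In males PFC was 1.53-fold over midbrain (edgeR adjusted p = 2.32e-05) and in females 1.57-fold (edgeR adjusted p = 3.99e-06). The difference between these folds was 0.030 on the log2 scale, with an interval of -0.21 to 0.27 (edgeR unadjusted p = 0.80). Relative to Tmem119 in the same sample, Fcrls stood at 0.926 ± 0.119 in the midbrain (SD, n = 12), 1.12 ± 0.132 in the striatum (n = 12) and 1.33 ± 0.147 in the PFC (n = 11). In 11 of 11 mice the PFC ratio exceeded the midbrain ratio, and so did the ratios of Fcrls to Cx3cr1, Selplg and Sparc.

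Selplg was slightly higher in the striatum than in the midbrain. Its gene lies next to Tmem119 on chromosome 5 (113818536 to 113832644, minus strand), 18019 bases away. The lowest, median and highest levels were 4411, 4563 and 5419 CPM in the midbrain, 4733, 5274 and 6191 CPM in the striatum and 4181, 4831 and 5546 CPM in the PFC. All 3 ranges overlapped, but within mice the striatum was above the midbrain in 12 of 12 and above the PFC in 10 of 11. The region effect had an edgeR adjusted p of 0.0326. Striatum was 1.14-fold over midbrain (log2 fold change 0.18, SE 0.053, edgeR adjusted p = 0.0268) and 1.12-fold over PFC (log2 fold change 0.16, SE 0.054, edgeR adjusted p = 0.171), both under the fold of 1.2. Without the striatum sample of mouse 3 these log2 fold changes were 0.20 and 0.18, and the region effect had an edgeR adjusted p of 0.0321. With the replicate block, striatum over PFC had an edgeR adjusted p of 0.00507 and the region effect one of 0.000243. The region call was lost with any of mice 2, 6, 7, 8, 10 or 12 left out (edgeR adjusted p up to 0.107), in mice 1 to 6 alone (0.225) and mice 7 to 12 alone (0.0655), and with an index of other brain cells' markers as a covariate (0.3001). The log2 fold change of striatum over midbrain was 0.14 with that covariate and 0.16 to 0.19 with single mice left out.

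The other 5 members did not pass the region test, and their levels were close in the 3 regions. Tmem119, on chromosome 5 (113793729 to 113800516, minus strand), had 3112 ± 263 CPM in the midbrain, 3334 ± 278 in the striatum and 3363 ± 299 in the PFC (SD, n = 12, 12 and 11). PFC was 1.08-fold over midbrain (edgeR unadjusted p = 0.0412, adjusted p = 0.262, higher in 10 of 11 mice). Cx3cr1, on chromosome 9 (119901616 to 120069879, minus strand), had 4708 ± 316, 5016 ± 376 and 5069 ± 504 CPM in that order. Its PFC level was 1.08-fold over midbrain (edgeR unadjusted p = 0.0394, adjusted p = 0.256, higher in 9 of 11 mice). The ratio of Cx3cr1 to Tmem119 was 1.52, 1.51 and 1.51 in midbrain, striatum and PFC. The receptor and the sort gene therefore kept a mean proportion that moved by less than its SD of 0.108 to 0.128 between samples.

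Sparc, on chromosome 11 (55394500 to 55423183, minus strand), had 5664 ± 502 CPM in the midbrain, 5522 ± 387 in the striatum and 5989 ± 499 in the PFC (SD). Striatum stood at 0.922 of the PFC level (edgeR adjusted p = 0.317) and was lower in 9 of 11 mice. Its region effect had an edgeR adjusted p of 0.268, and of 0.0495 with the replicate block. Olfml3, on chromosome 3 (103722222 to 103738001, minus strand), had 2670 ± 319, 2751 ± 331 and 2744 ± 254 CPM (edgeR adjusted p = 0.906). Aif1, on chromosome 17 (35170991 to 35176068, minus strand), was the least abundant member, with 428 ± 51.4, 419 ± 30.8 and 427 ± 64.02 CPM (edgeR adjusted p = 0.958). For these 5 members, the 95% intervals of the folds between regions fitted over both sexes lay between 0.86 and 1.163. Within 1 sex, with fewer samples, some intervals went past 1.2-fold, such as 1.014 to 1.247 for Tmem119 in PFC over midbrain of females and 0.773 to 1.033 for Aif1 in striatum over PFC of males.

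**Figure D2:**
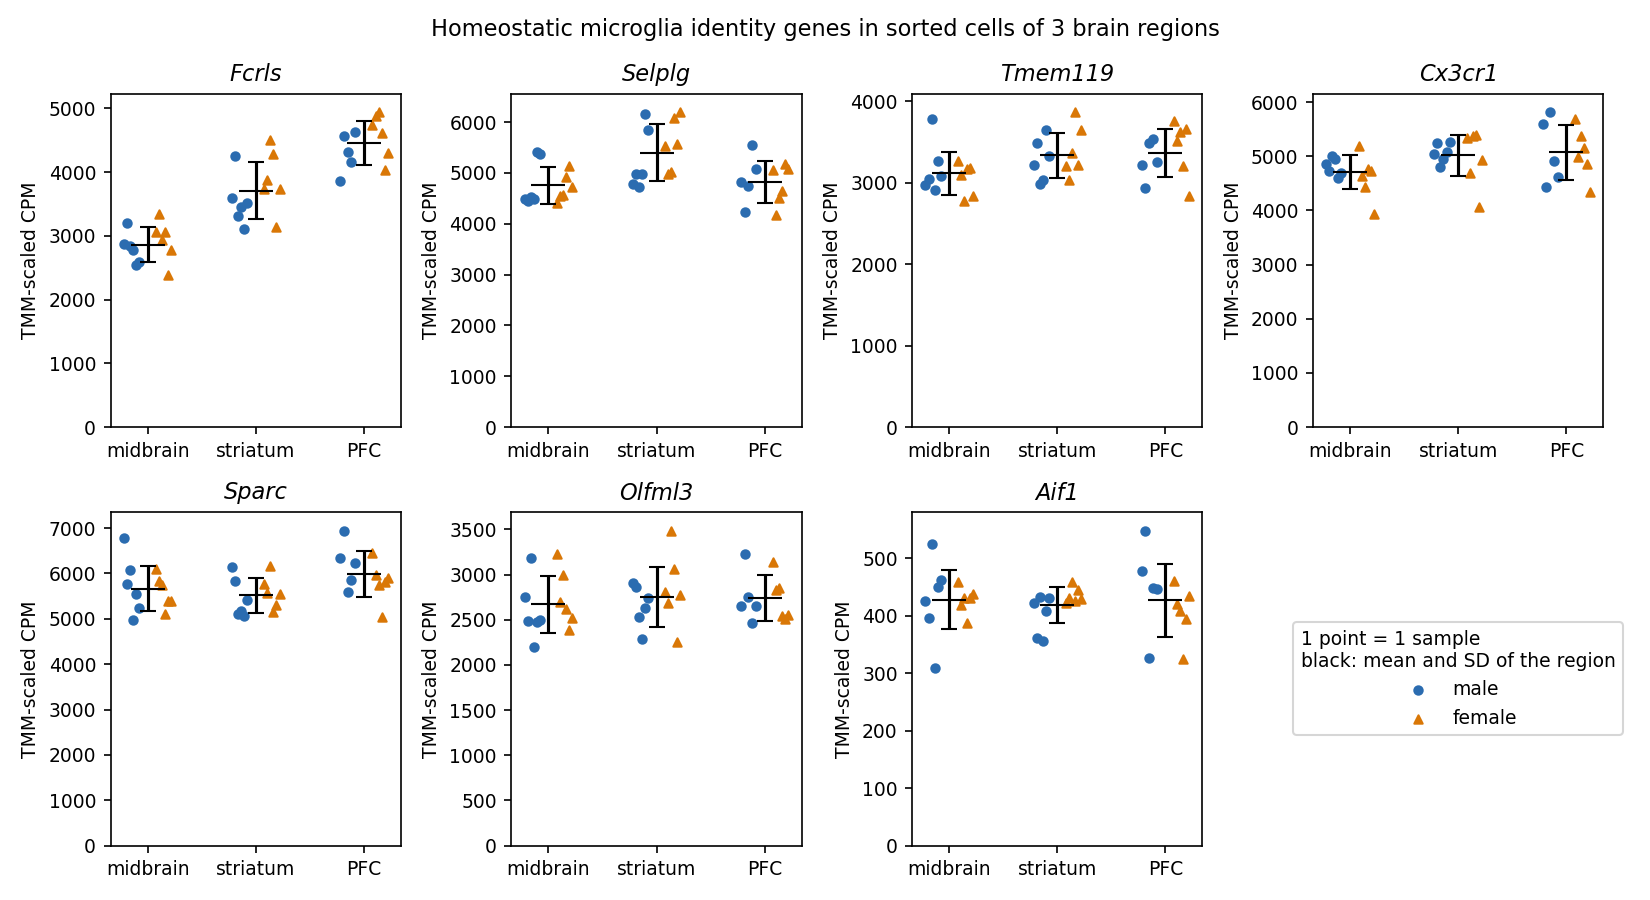
TMM-scaled CPM of the 7 members by region, 1 panel per transcript, with 1 point per sample (circles for males, triangles for females) and black bars for the mean and SD of each region (n = 12, 12 and 11). The Fcrls points of midbrain and PFC do not overlap, while those of each other member do (the share of all genes without overlap was not counted).

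Thus 2 of 7 members, Fcrls and Selplg, passed the region test, where 8.89% of all 21236 genes did. The study had shown both as regionally different in these same samples, and the members were chosen with such results known. The count of members is therefore not independent of those results. For PFC over midbrain 1 of 7 was called higher (Fcrls) and 0 lower, with 2.75% of all genes called higher and 3.24% lower. Tmem119 and Cx3cr1 also had an edgeR unadjusted p under 0.05 for this pair. For striatum over midbrain 1 of 7 was higher (Fcrls) and 0 lower, beside 3.50% and 2.98%. For striatum over PFC 0 of 7 were called by edgeR (2.31% of genes were higher and 0.833% lower), with Fcrls, Selplg and Sparc under an unadjusted p of 0.05, and limma-voom called Fcrls alone. By an adjusted p under 0.05 with no fold minimum, edgeR gave 1 higher for PFC over midbrain (2.88% of genes higher, 3.64% lower), 2 higher for striatum over midbrain (4.18% and 3.27%) and 1 lower for striatum over PFC (0.391% and 0.179%). The median log2 fold change of the members was 0.082 for PFC over midbrain and 0.092 for striatum over midbrain, with 0.011 and 0.012 over all genes. The summed level of the 7 members was 24199 ± 1044 CPM in the midbrain, 26152 ± 1538 in the striatum and 26871 ± 1016 in the PFC (SD). Without Fcrls it was 21335 ± 1000.4, 22443 ± 1224 and 22417 ± 976 CPM, so that most of the gap between PFC and midbrain came from Fcrls.

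**Figure D3:**
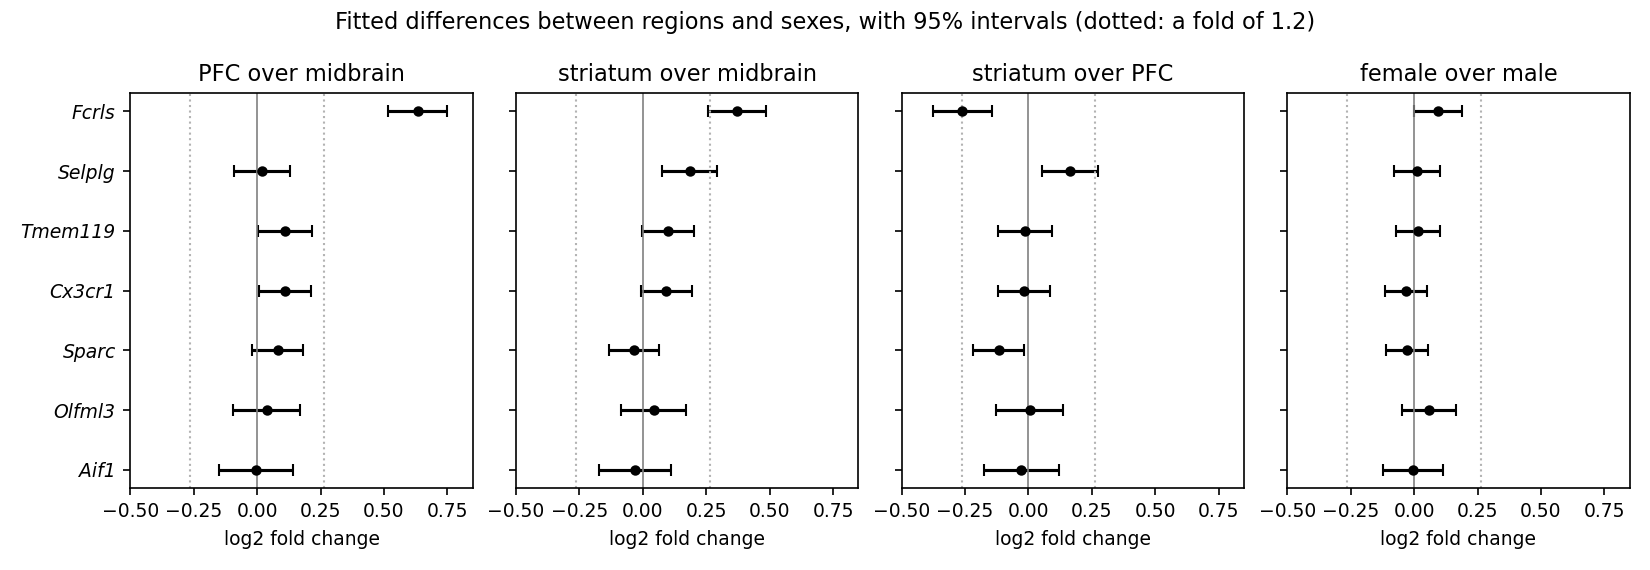
Fitted log2 fold change of each member (points) with its 95% interval (bars) for the 3 region pairs and for sex, with dotted lines at a fold of 1.2. The Fcrls point for PFC over midbrain, at 0.63, stands beyond the dotted line with its whole interval, and each sex interval of the other members spans 0.

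No member passed the test of sex. Females were 1.07-fold over males for Fcrls (edgeR unadjusted p = 0.0497, adjusted p = 0.621), the single member with an unadjusted p under 0.05, and this was under the fold of 1.2. These 35 samples come from 12 mice, and the unadjusted p was 0.0907 with edgeR on counts summed per mouse and 0.0729 with limma-voom and mouse as a random effect. For the other 6 members the fold lay between 0.979 and 1.04, with intervals from 0.917 to 1.12. These intervals took the 35 samples as independent and are narrower than 12 mice allow. With counts summed per mouse the SE on the log2 scale was 0.066 for Selplg, against 0.044. For Aif1 it was 0.087, against 0.058. Of all genes 4.13% passed the study's cut-offs for sex (unadjusted p under 0.05 and fold over 1.2), and 0 of 7 members did in edgeR, DESeq2 or limma-voom. Within the midbrain, striatum and PFC, where 4.84%, 2.28% and 5.29% of genes passed the same cut-offs, 0 of 7 members did, and 0 had an unadjusted p under 0.05. The interaction of region and sex had edgeR unadjusted p-values of 0.206 to 0.866 for the members, and 0 genes of the whole table had an edgeR adjusted p under 0.05, while 632 had an unadjusted p under 0.05.

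**Figure D4:**
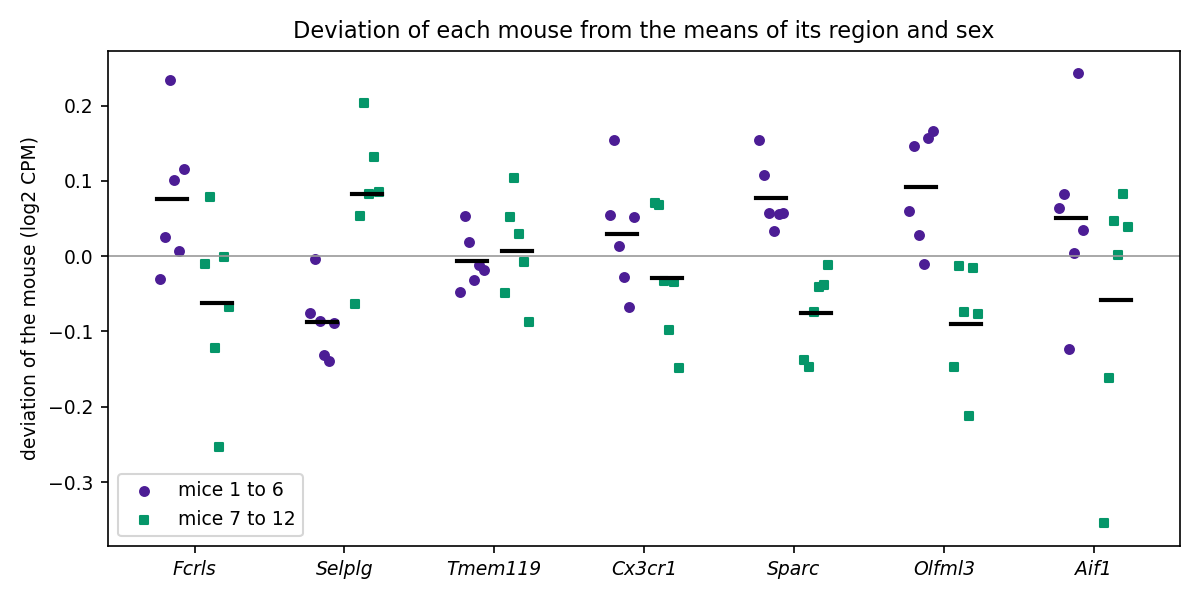
Deviation of each mouse from the mean of its region and sex, averaged over its regions (log2 CPM, vertical axis), for the 7 members, with purple circles for mice 1 to 6, green squares for mice 7 to 12 and black lines for the mean of each set. For Sparc and Olfml3 the sets do not overlap, and Tmem119 has nearly the same mean in both.

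Samples of different mice differed within a region. The coefficient of variation within a region and sex had a median of 7.96% for Sparc to 10.9% for Olfml3. Counting error was at most 0.847% for Aif1 and 0.334% or less for the other members, so that the spread between samples sets the precision. In a region each mouse gave at most 1 sample, so differences between mice and between sample preparations cannot be told apart there. Mice 1 to 6 and mice 7 to 12, each set with 3 males and 3 females, were compared as a split by number, which the labels do not call a batch. The higher-numbered mice stood 0.18 lower for Olfml3 and 0.15 lower for Sparc on the log2 scale, with no overlap between the sets, and 0.17 higher for Selplg, with overlap. How many of all genes split in this way was not counted, so the gap is not shown to be particular to these members. Across the 12 mice, 21 pairs of members were correlated, and none passed correction. The highest correlation was between Sparc and Olfml3 (Pearson's r = 0.67, permutation p = 0.0171, adjusted p = 0.236; Spearman's rho = 0.76, permutation p = 0.00535, adjusted p = 0.112), the matrix protein genes. Without the 2 mice farthest from the median of Olfml3, r was 0.74, but within mice 1 to 6 it was 0.13 and within mice 7 to 12 -0.12, so that the relation did not hold within the sets. Selplg and Olfml3 had r = -0.51 over all mice (permutation p = 0.0895, adjusted p = 0.288) and rho = -0.68 (permutation p = 0.0193, adjusted p = 0.144), and r was -0.55 without the 2 farthest mice but 0.28 and 0.34 within the sets.

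Levels between transcripts can be compared only per length. Per kilobase of annotated exon, over all 35 samples, Fcrls had 1565 ± 319 CPM, Sparc 1509 ± 130, Tmem119 1411 ± 127, Selplg 1170 ± 125, Cx3cr1 1094 ± 93.9, Olfml3 442 ± 48.3 and Aif1 277 ± 31.9 (SD). Fcrls exceeded Sparc in 19 of 35 samples and Selplg exceeded Cx3cr1 in 21, so by this length these neighbours in the order do not differ beyond their spread. Tmem119 exceeded Selplg, Cx3cr1 exceeded Olfml3 and Olfml3 exceeded Aif1 in 35 of 35. By this length Fcrls changed place with region. In the midbrain it stood below Sparc and, in the mean, below Tmem119, which exceeded it in 9 of 12 samples, and in the PFC first, above Sparc in 10 of 11. With the length of the principal transcript in place of all exons, an alternative chosen after seeing the data, Selplg had the highest mean over all samples (2694 CPM per kilobase, Sparc 2486) but exceeded Sparc in 23 of 35, and in the PFC they had 2601 and 2604, so they do not differ beyond their spread. The order changed with the length for Selplg and Sparc, whose annotated exons span 4272 and 3788 bases and principal transcripts 1855 and 2300. By the principal transcript Sparc exceeded Fcrls in 35 of 35 samples, and Olfml3 exceeded Aif1 in 22. In the PFC Fcrls then had rank 3, at 1960 CPM per kilobase.

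Fcrl1, the Fc receptor-like relative of Fcrls on the same chromosome (87376387 to 87402934, plus strand), had a like pattern at a far lower level. Its level was 106 ± 10.3 CPM in the midbrain, 136 ± 12.4 in the striatum and 152 ± 13.5 in the PFC (SD), with log2 fold changes over midbrain of 0.52 in the PFC (SE 0.059, edgeR adjusted p = 6.32e-08) and 0.36 in the striatum (SE 0.057, edgeR adjusted p = 6.54e-05). Between the genes lies Cd5l, a secreted scavenger receptor gene of macrophages, at a mean of 0.651 CPM. No stretch of at least 50 bases with 95% identity was shared between Fcrls transcripts and those of another gene, Fcrl1 included, while Cx3cr1 shared 79 bases with the antisense gene Gm33858 and Selplg 50 with Styx. Fcrla and Fcrlb were at 0.124 and 0.925 CPM, and Fcrl5 is not among the genes of the table. The bases before the principal transcript of Fcrls and before the Fcrl1 gene are shown (RefSeq sequence, GRCm38.p6, 5′ to 3′ on each gene's own strand, annotated exons left out). Each match to GAGGAA, the core of motifs bound by the myeloid factor PU.1, is in capitals on either strand. The Fcrls stretch is chr3:87263600-87263677 (78 bases) and that of Fcrl1 chr3:87376137-87376386 (250 bases). The Fcrls stretch lies inside the annotated gene, which reaches to 87263738, but outside its exons, whereas the Fcrl1 stretch lies before its gene.
Fcrls: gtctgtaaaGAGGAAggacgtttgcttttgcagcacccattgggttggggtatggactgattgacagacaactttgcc
Fcrl1: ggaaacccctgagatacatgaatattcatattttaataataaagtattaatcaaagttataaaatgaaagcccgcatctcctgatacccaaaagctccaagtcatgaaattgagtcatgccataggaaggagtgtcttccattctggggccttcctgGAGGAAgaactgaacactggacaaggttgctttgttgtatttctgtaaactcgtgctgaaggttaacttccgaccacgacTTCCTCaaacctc

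Both strands were searched. In windows from 250 bases before to 50 after the RefSeq start, GAGGAA matched 1 time in Fcrls and Aif1 and 2 times in Fcrl1, and 28.3% of all 32851 such windows held it. CAGACA, bound by SMAD factors, matched 1 time in Fcrls and 2 times in Sparc (6913 of the windows held it). CTANNNNTA, a MEF2 motif (also in 6913 windows), matched 1 site in Cx3cr1, where the matches on both strands overlap, and GGAANNGAA, a joint motif of PU.1 and IRF (8.24% of windows), matched in none. Windows were at hand for 5 of 7 members, without Tmem119 and Selplg.

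By Pearson's r over the 35 samples, among 8606 other genes with a mean of at least 8 CPM, the transcripts most like Fcrls were Slc39a12 (r = 0.88), a zinc transporter gene, Fcrl1 (0.87) and Ptger3 (0.85), a prostaglandin E2 receptor gene. Slc39a12 had a mean of 13.8, 22.05 and 28.3 CPM in midbrain, striatum and PFC, and Ptger3 4.50, 12.9 and 27.5 CPM. When deviations from the mean of each region and sex were correlated instead, none of these 3 remained among the first 3, which were led by Ykt6 (r = 0.71). For the other members the first gene was St6galnac4 for Tmem119 (0.78), Ccdc71 for Cx3cr1 (0.78), Cnpy3 for Selplg (0.88), Mrpl20 for Olfml3 (0.84), Wdr38 for Sparc (0.88) and Gmfg for Aif1 (0.85). P2ry12, the purinergic receptor gene of resting microglia, was among the first 3 for Cx3cr1 (0.75). The samples of 1 mouse and of 1 region share their source, so these values describe the samples.

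Other transcripts listed for homeostatic microglia, among them Ctss, Ctsd, Trem2, Tyrobp and the C1q genes, differed between regions in both directions. Of 26 such transcripts, all in the table, edgeR called 4 higher and 2 lower in PFC than midbrain (2.75% and 3.24% of all genes). In striatum it called 5 higher and 1 lower than midbrain (3.50% and 2.98%), and 0 higher and 1 lower (Crybb1) than PFC (2.31% and 0.833%). The median log2 fold changes were 0.038, 0.075 and 0.018. By an adjusted p under 0.05 with no fold minimum, edgeR gave 7 higher and 2 lower for PFC over midbrain (2.88% and 3.64% of all genes). For striatum over midbrain it also gave 7 higher and 2 lower (4.18% and 3.27%). For striatum over PFC it gave 0 (0.391% and 0.179%). Crybb1, a crystallin gene, had 289 ± 46.6 CPM in the midbrain, 347 ± 57.99 in the striatum and 425 ± 74.1 in the PFC (SD), an order like that of Fcrls, with PFC over midbrain at a log2 fold change of 0.55 (edgeR adjusted p = 1.20e-04). Lag3, an inhibitory receptor gene, had 54.2 ± 11.4 CPM in the midbrain, 84.5 ± 11.4 in the striatum and 83.3 ± 23.8 in the PFC, and Ltc4s, a leukotriene synthase gene, 239 ± 44.2, 332 ± 39.7 and 311 ± 51.9. P2ry12 exceeded its midbrain level in the PFC by 0.29 on the log2 scale (edgeR adjusted p = 0.00243), and Siglech, a sialic acid receptor gene, and Sall1, a transcription factor gene of microglia, in the striatum by 0.31 and 0.29 on the log2 scale (edgeR adjusted p = 8.48e-05 and 0.00615). Csf1r, the receptor gene for the growth factors that keep microglia alive, had 7110 ± 1036, 8906 ± 1254 and 7843 ± 1176 CPM, with striatum over midbrain at a log2 fold change of 0.33 (edgeR adjusted p = 0.0125). The transcripts called lower in the PFC than in the midbrain were Ctss, a lysosomal protease gene, at 14057 ± 1064, 10903 ± 747 and 11243 ± 1088 CPM, and Cd81, a tetraspanin gene named after its values were seen, at 4565 ± 370, 3870 ± 296 and 3749 ± 324 CPM. These counts are not independent of results already known for these samples.

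Of 17 ligands, partners and relatives of the members, 14 were in the table. For PFC over midbrain 2 were higher (Fcrl1 and Olfml2b) and 0 lower, and likewise for striatum over midbrain, while 0 of 14 were called for striatum over PFC. Of all genes 2.75%, 3.50% and 2.31% were called higher for these pairs in that order, and 3.24%, 2.98% and 0.833% lower. Olfml2b, a relative of Olfml3, had 37.9 ± 8.09, 47.3 ± 9.38 and 53.2 ± 6.37 CPM (SD) in midbrain, striatum and PFC, whereas Olfml3 itself stayed within 2670 to 2751. Gcnt1, an enzyme gene that builds the sugar chains by which PSGL-1 binds selectins, had 222 to 230 CPM in all regions, and Fut7, another such enzyme gene, 1.18 to 1.84. Sparcl1, the relative of Sparc made by astrocytes, had 11.8, 22.3 and 14.6 CPM, and Cx3cl1, the ligand of Cx3cr1, made by neurons, 1.01 to 1.22 CPM.

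All 7 members are transcribed from the minus strand, and some have close neighbours. Coro1c, an actin-binding protein gene beside Selplg, was lower in PFC and striatum than in the midbrain (log2 fold changes -0.34 and -0.26, edgeR adjusted p = 0.00217 and 0.0188, the second under the fold of 1.2), while Selplg was higher in the striatum. Prrc2a, beside Aif1, had 5.68, 9.64 and 6.51 CPM in midbrain, striatum and PFC and was higher in striatum than midbrain (log2 fold change 0.76, edgeR adjusted p = 0.00367). Iscu, an iron-sulfur cluster scaffold gene on the far side of Tmem119, had 115 to 126 CPM and did not pass the region test (edgeR adjusted p = 0.241). The annotated span of Cx3cr1 covers Wdr48, Gorasp1, Ttc21a, Csrnp1 and Xirp1, but its exons share 78 bases with other genes, or 1.73% of their length, and the exons of the other 6 members share 0. Whether reads were assigned by strand was not given in the sources used here.

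Between midbrain and PFC, markers of astrocytes and neurons differed in the direction of Fcrls. Of 10 astrocyte markers 4 were called higher for PFC over midbrain, and of 10 neuronal markers 5, and both lists had 0 lower (2.75% of all genes were higher and 3.24% lower). The astrocyte sums of midbrain and PFC overlapped slightly, and the neuronal sums did not. Between striatum and PFC the astrocyte sums had means of 359 and 349 CPM and the neuronal sums 10.4 and 15.5 CPM. Fcrls was lower in the striatum. For striatum over PFC 3 of 10 neuronal markers were called lower and 0 higher, and 0 of 10 astrocyte markers were called (2.31% of all genes were higher and 0.833% lower). With the mean log2 level of the markers of astrocytes, endothelial cells, pericytes, oligodendrocytes and neurons as a covariate, the log2 fold change of Fcrls was 0.63 for PFC over midbrain (edgeR adjusted p = 7.84e-10), 0.38 for striatum over midbrain (edgeR adjusted p = 0.00031) and -0.25 for striatum over PFC (edgeR adjusted p = 0.0884). That covariate averages lists that moved in opposite directions, so it follows no cell type by itself. For PFC over midbrain the median log2 fold changes were 1.70 for neuronal and 0.36 for astrocyte markers. They were -0.24 for oligodendrocyte, -1.12 for endothelial and -1.335 for pericyte and fibroblast markers. Without mouse 6, whose midbrain sample held the border macrophage transcripts, the region effect on Fcrls had an edgeR adjusted p of 3.28e-08. The part of other cells in the differences of Fcrls and Selplg beyond this covariate, or of neuronal markers alone, was not tested.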

How the data were processed

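Cells positive for tdTomato were sorted from 3 regions, and cDNA from the Smart-Seq HT kit (15 cycles) was sequenced as paired reads of 50 bases. The values the authors deposited are raw read counts for each Ensembl gene, without normalization, after FastQC 0.11.9, Trimmomatic 0.38 and HISAT2 2.2.0 (submitters' processing notes and the study's methods) on GRCm38 and a filter at 1 CPM in at least 1 group of region and sex. The counting tool, annotation release and use of strand are not given in the sources used here. Columns were assigned to samples by their labels, and 0 columns were left unmapped.

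From these counts, edgeR 4.0.16 in R 4.3.3 (TMM factors, robust quasi-likelihood F-test) was fitted to region and sex over all 35 samples, and to a mean for each of the 6 groups for sex within a region and the interaction. The SE is the log2 fold change over the square root of F. p-values were adjusted by Benjamini-Hochberg over 21236 genes. Genes were named from GENCODE M21 (21103 with a symbol, 133 without). Log2 CPM used a prior count of 2. Correlations used 100000 permutations, two-sided. BLAST+ 2.17.0 compared transcripts. The number in a sample's label was taken as that of the mouse, so samples of the same animal are paired: deviations of same-mouse samples correlated at a mean r of 0.347 over 34 pairs (32 over 0.1), against -0.068 for different mice. The closest 2 samples of a group differed by a chi-square of 25.3 per degree of freedom, so none was a duplicate. The main edgeR fits took the 35 samples as independent, so their p-values do not account for several samples coming from the same mouse. Only some of the alternative fits took the mouse into account. PCR reads carry no molecular identifiers, so counting error is a lower limit. Scripts were tested on simulated data, with changes set for PFC over midbrain in genes drawn from those of at least 8 CPM. At an adjusted p under 0.05 edgeR found 7 of 67 genes set at 1.2-fold and 60 of 67 at 1.5-fold. Few genes were changed there, which makes the adjustment stricter than in the data, where 1888 genes had a region effect. The members had means of 424 to 5717 CPM, far above the 8 CPM minimum. These shares therefore do not give the rate at which such folds would be found in the members.

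Named genes are the 7 members, up to 8 other homeostatic genes that passed a pair's cut-offs, by fold, relatives with at least 1 CPM (others as values), the 3 most similar genes of each member and annotated neighbours. The members and lists were chosen with earlier results of these data known. The alternatives were DESeq2 1.42.0, its size factors in edgeR, library totals alone, limma 3.58.1 with voom and mouse as a random effect, filterByExpr (16966 genes), mouse as a replicate block, sets of mice, an index of other cells' markers, another threshold and each mouse left out.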

Additional observations from a re-analysis of the deposited data

How the results depend on the processing

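The region effect, the 3 region pairs and the difference between sexes were each fitted again under 22 alternatives, sex within a region under 1 (the samples of that region alone), and the interaction and the region pairs within a sex under none. Fcrls kept its region effect and both differences from the midbrain in all 22, with log2 fold changes of 0.58 to 0.69 for PFC over midbrain and 0.34 to 0.40 for striatum over midbrain. No member was called for sex under any of these alternatives. The number of members with a region effect (2) became 1, Selplg being lost, in mice 1 to 6 alone, in mice 7 to 12 alone and with the index of other brain cells, and ranged from 1 to 2 with single mice left out. Over all genes the count of 1888 became 2972 with limma-voom, 2977 with the replicate block, 512 in mice 1 to 6 and 1183 in mice 7 to 12 (fewer samples), and ranged from 1389 to 1854 with single mice left out. With the replicate block 3 members had a region effect (Fcrls, Selplg and Sparc). For striatum over midbrain the count was 2 with an adjusted p alone. For striatum over PFC the count of 0 became 1, Fcrls each time, with limma-voom, filterByExpr, the replicate block, mice 7 to 12, the striatum sample of mouse 3 left out and an adjusted p alone, and ranged from 0 to 1 with single mice left out (1 without mouse 1, 3, 6, 8 or 12). Fcrls lay close to the fold of 1.2 there, at log2 fold changes of -0.30 to -0.23. Other causes were not tested.

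The differences that changed sign were small. For Aif1, PFC over midbrain was 0.0082 on the log2 scale with library totals and 0.065 in mice 1 to 6 (-0.033 to 0.016 with single mice left out), striatum over midbrain 0.0045 in mice 7 to 12, striatum over PFC 0.070 in mice 7 to 12 (-0.068 to 0.0086), and female over male 0.0043 with totals, 0.0074 with limma-voom, 0.021 in mice 7 to 12 and 0.0052 with counts summed per mouse (-0.072 to 0.056). For Olfml3, in mice 1 to 6, striatum over midbrain was -0.0098 and striatum over PFC -0.025 (-0.027 to 0.044). For Tmem119, striatum over PFC was 0.0052 with totals, 0.055 in mice 7 to 12 and 0.0020 with the index (-0.046 to 0.013), and female over male -0.0012 in mice 7 to 12 (-0.0020 to 0.041). For Cx3cr1, striatum over PFC was 0.00069 in mice 7 to 12 and 0.048 with the index (-0.037 to 0.011), and female over male 0.020 in mice 1 to 6 (-0.060 to 0.0013). For Selplg, female over male was -0.011 in mice 7 to 12 (-0.013 to 0.061), and for Sparc it ranged from -0.056 to 0.013 with single mice left out. Per kilobase of the principal transcript, chosen after seeing the data, levels were 2694 CPM for Selplg, 2486 for Sparc, 498 for Olfml3 and 485 for Aif1. Depth was not the limit for these transcripts, since the lowest count of a member in a sample was 13942.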
